A study of Mus musculus with 13 samples.

Results

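The genes described here encode 10 enzymes that act on collagen, namely the lysyl oxidases Lox, Loxl1, Loxl2, Loxl3 and Loxl4, the prolyl 4-hydroxylase subunits P4ha2 and P4ha3, and the lysyl hydroxylases Plod1, Plod2 and Plod3. They were read by every probe set whose sole gene symbol in the platform annotation was one of these names, which gave 16 probe sets for 10 genes, of 45037 probe sets (28898 with 1 symbol, for 17097 genes) that were not array controls. A further 3 probe sets carried a member's symbol together with another gene's and were left out. Where a gene had several probe sets, they are numbered in the order of their identifiers.

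Arrays were hybridised with total RNA of squamous tumours raised on mouse back skin with DMBA, a mutagen, and TPA, which promotes tumour growth. The groups were G9a WT mice (n = 6) and G9a cKO mice (n = 7), cKO standing for conditional knockout of G9a, a histone H3 lysine 9 methyltransferase encoded by Ehmt2. All mice of both groups started at 8 weeks of age, received DMBA (0.25 mg/ml) and TPA (0.02 mg/ml), 200 µl in acetone, each week for 6 weeks, and then TPA 2 times a week for at most 20 weeks. The promoter and cell type that drive the deletion, the strain and sex of the mice, and the number of tumours per mouse were not stated in the labels, so p-values measure only the spread between these samples. In bulk tumour RNA, fewer cells of a type and less RNA per cell cannot be told apart.

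Collagen chains are modified inside the endoplasmic reticulum before they fold. Prolyl 4-hydroxylases, built of a catalytic alpha subunit (P4ha genes) and protein disulphide isomerase, convert proline to hydroxyproline, which stabilises the triple helix. Lysyl hydroxylases (Plod genes) convert lysine to hydroxylysine, the site of sugar attachment and of the more stable crosslinks, and Plod2 acts mainly on the telopeptides at the chain ends. Outside the cell, the copper-dependent lysyl oxidases turn lysine and hydroxylysine into aldehydes, which then form the covalent crosslinks of collagen and elastin fibres. The hydroxylases need iron, oxygen, oxoglutarate and ascorbate, and Lox, P4ha2 and Plod2 are known targets of hypoxia-inducible factors.

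Promoter sequence was found for 5 of the 10 genes in the RefSeq table (GRCm38.p6). The 250 bases before the annotated start of 4 of them are shown, 5′ to 3′ on the gene's strand, because they include genes with large group differences (P4ha3, Plod1 and P4ha2) and Plod3, whose difference was the smallest of the genes read by 1 probe set. Capitals mark the core letters ACGTG and GCGTG that hypoxia-inducible factors can bind, read on either strand, so that CACGT and CACGC also count.
P4ha3 (chr7:100285270-100285519, plus strand): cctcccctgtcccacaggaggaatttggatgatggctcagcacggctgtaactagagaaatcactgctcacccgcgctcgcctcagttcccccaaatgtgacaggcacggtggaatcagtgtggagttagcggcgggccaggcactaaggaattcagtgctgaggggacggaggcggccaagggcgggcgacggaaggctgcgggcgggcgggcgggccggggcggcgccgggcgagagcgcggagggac
Plod1 (chr4:147936777-147937026, minus strand): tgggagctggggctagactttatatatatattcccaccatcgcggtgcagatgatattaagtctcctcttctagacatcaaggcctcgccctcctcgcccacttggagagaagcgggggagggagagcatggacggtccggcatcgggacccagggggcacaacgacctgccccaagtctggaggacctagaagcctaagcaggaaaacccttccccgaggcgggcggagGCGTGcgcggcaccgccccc
P4ha2 (chr11:54100674-54100923, plus strand): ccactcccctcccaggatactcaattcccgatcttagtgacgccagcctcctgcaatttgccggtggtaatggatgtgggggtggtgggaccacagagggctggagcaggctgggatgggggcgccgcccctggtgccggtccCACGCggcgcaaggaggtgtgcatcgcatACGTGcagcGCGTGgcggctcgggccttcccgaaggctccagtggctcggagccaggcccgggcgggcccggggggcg
Plod3 (chr5:136986769-136987018, plus strand): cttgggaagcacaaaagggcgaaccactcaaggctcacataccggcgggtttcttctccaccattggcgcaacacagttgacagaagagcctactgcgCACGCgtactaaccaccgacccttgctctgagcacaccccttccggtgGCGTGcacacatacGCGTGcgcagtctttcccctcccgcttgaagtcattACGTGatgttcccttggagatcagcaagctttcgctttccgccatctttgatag
The P4ha2 window held 3 such matches, Plod3 had 4, Plod1 had 1 and P4ha3 had 0, and the Loxl4 window, not shown, had 1. Of 32851 promoter windows of the same length, 38.6% held at least 1 match and 16.7% held 2 or more. Both cores contain CG, and the member windows had a GC content of 55.6% (Plod3) to 76.0% (Loxl4). The median over all promoter windows was 52.4%, so these shares are not matched for GC content and the counts cannot be compared with them directly. A match is a description of letters and not of binding.

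Values are log2 expression as deposited by the authors, on arrays whose medians lay between 5.09 and 5.14. Ehmt2 checks the labels through its second probe set, which read 8.03 to 8.61 on WT and 5.87 to 6.12 on cKO arrays, while its first probe set did not differ beyond its spread (7.03 to 7.53 against 7.36 to 7.49, limma adjusted p = 0.163). Neighbouring arrays, in deposited order, mirror one another around their group mean (WT replicates 2 and 4, 6 and 7, 8 and 9; cKO replicates 2 and 3, 5 and 6, 8 and 9), with correlations of their deviations over all probe sets between -0.953 and -0.881, so the arrays of a group are not independent. Each difference was tested with and without a term for these pairs. The pair term takes its error from differences within pairs, so the spread between pair means does not enter it. Every pair lies inside a single group, so neither fit makes up for the lack of independence. The words rose and fell are kept for genes that in both limma fits passed an adjusted p of 0.05. The Benjamini-Hochberg adjustment was over all probe sets for the members, and over 17097 genes for the genes of the lists. For scale, the 23 nonspecific control probe sets had an upper quartile of 4.29 and a highest mean of 6.17, and their group differences, cKO minus WT, ran from -0.307 to 0.08. No control thus read higher in cKO tumours by more than 0.08, and 0.307 is used as the stricter yardstick of size. Base composition of the member probe sets was not used here, so which control level applies to each of them is unknown.

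The enzyme genes read higher in cKO tumours on all 16 probe sets, with a median difference of 0.36 against 0.0004 over all probe sets. Of the 16, 11 passed the test as higher (68.8%, with 24.4% of all probe sets called higher) and 0 as lower, whether by adjusted p or by an unadjusted p under 0.05. With the pair term 7 passed (43.8% against 13.9%), from Lox, Loxl1, P4ha3 and Plod1, and after quantile normalization 10 passed (24.5% of all). In either direction, 47.9% of all probe sets were called without the pair term and 27% with it. The groups did not overlap for 8 of the 16 (50%), which held for 13.3% of all probe sets in this direction. Passing in both fits with a difference above 0.307, the size of the largest control decrease, was found for 5 of 16 (31.2% against 6.52%), and a rise of 2-fold or more for 1 of 16, while 0.619% of all probe sets had such a call.

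**Figure D1:**
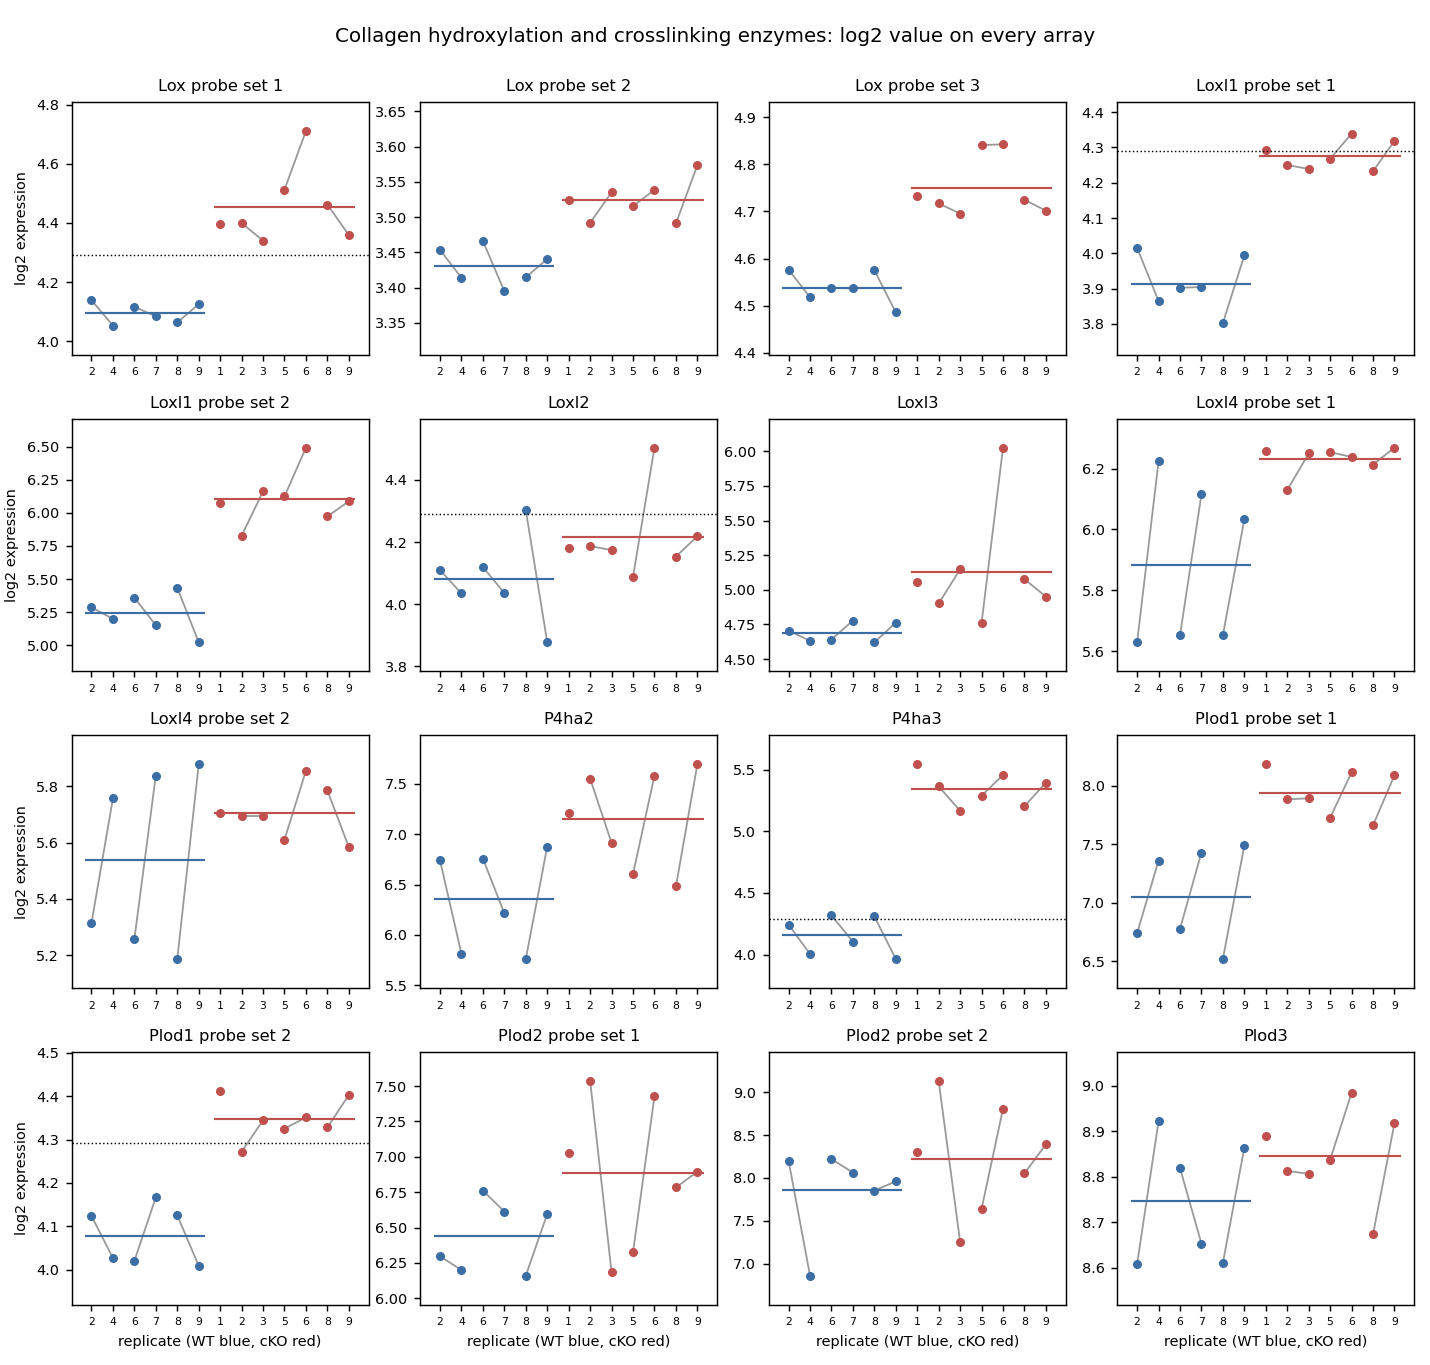
Log2 expression (y axis, scaled per panel) on each array, with the replicate number on the x axis, for the 16 probe sets of the 10 genes; points are arrays (WT blue, cKO red), bars are group means, grey lines join mirrored neighbours, and the dotted line is the upper quartile of the nonspecific controls (4.29) where it falls in the panel. P4ha3, both Loxl1 and both Plod1 probe sets, and the 3 Lox probe sets have all cKO arrays above all WT arrays.

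Among the prolyl hydroxylase subunits, P4ha3 rose most of all members. P4ha3 read 3.97 to 4.32 (median 4.17) on the 6 WT arrays and 5.17 to 5.54 (median 5.36) on the 7 cKO arrays. All cKO tumours thus lay above all WT tumours by a margin wider than the range of either group. The means were 4.16 ± 0.15 (SD, n = 6) and 5.35 ± 0.14 (SD, n = 7), a difference of 1.19 ± 0.08 (SE; limma adjusted p = 3.34e-07, and 0.000432 with the pair term). Since 4 of 6 WT arrays were below 4.29, the change is given as at least 2.07-fold higher, with each array below that level set to it. Such bounds, here and below, hold for that level only and leave out the error of the estimate. The spread within each group was small, and the 3 WT and 3 cKO pair means lay between 4.12 and 4.21 and between 5.27 and 5.37.

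P4ha2, the other alpha subunit measured, varied far more between tumours. It read 5.76 to 6.88 (median 6.48) in WT and 6.48 to 7.69 (median 7.21) in cKO tumours. The groups overlapped, since cKO replicates 8 (6.48) and 5 (6.60) lay below the 3 highest WT arrays, replicates 9 (6.88), 6 (6.76) and 2 (6.74). The difference was 0.79 ± 0.26 (SE), or 1.72-fold, and passed the test without the pair term (limma adjusted p = 0.0227) but not with it (0.109). It also missed the threshold without WT replicate 4 (0.68, limma adjusted p = 0.0511) or without WT replicate 8 (0.67, 0.052).

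The lysyl hydroxylases differed from one another in their values. Plod1, which hydroxylates lysines of the triple helix, rose on both of its probe sets. On its brighter probe set (number 1) it read 6.52 to 7.49 (median 7.07) in WT and 7.66 to 8.18 (median 7.89) in cKO tumours, so the groups did not overlap. The means were 7.05 ± 0.42 (SD, n = 6) and 7.93 ± 0.20 (SD, n = 7), a difference of 0.88 ± 0.17 (SE) or 1.84-fold (limma adjusted p = 0.000865, and 0.0184 with the pair term). WT tumours split into low values in replicates 2 (6.74), 6 (6.78) and 8 (6.52) and high values in replicates 4 (7.36), 7 (7.43) and 9 (7.49), that is, 1 low and 1 high array in each mirrored pair, with pair means of 7.01 to 7.10. Plod1 probe set 2 read 4.01 to 4.17 in WT and 4.27 to 4.41 in cKO tumours, a difference of 0.27 (limma adjusted p = 5.45e-05, and 0.006 with the pair term). All 6 WT arrays were below 4.29 there, so the bound was at least 1.04-fold higher, and the difference was above the highest increase among the nonspecific controls (0.08) and below the size of their largest decrease (0.307).

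Plod2, the telopeptide lysyl hydroxylase, did not pass on either probe set. Probe set 2 read 6.86 to 8.22 (median 8.01) in WT and 7.25 to 9.13 (median 8.30) in cKO tumours, with a difference of 0.37 (95% interval -0.29 to 1.03; limma adjusted p = 0.342). Probe set 1 read 6.16 to 6.76 and 6.18 to 7.53, with a difference of 0.44 (95% interval -0.02 to 0.91; limma adjusted p = 0.104). The cKO tumours were spread over almost 2 log2 units on probe set 2, from replicate 3 (7.25) and replicate 5 (7.64) to replicate 6 (8.81) and replicate 2 (9.13), and probe set 1 ranked the same pairs of arrays lowest (6.18 and 6.33) and highest (7.43 and 7.53). Without cKO replicate 3 the difference of probe set 1 was 0.56 and passed (limma adjusted p = 0.0322). Both intervals, from the fit without the pair term, include 0.

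Plod3, which adds the sugars to hydroxylysine as well as hydroxylating lysine, was nearly level between the groups. It read 8.61 to 8.92 (median 8.74) in WT and 8.67 to 8.98 (median 8.84) in cKO tumours. The difference was 0.10 (95% interval -0.04 to 0.24; limma adjusted p = 0.215). Probe sets in its decile of brightness had a median difference of -0.13. The spread of values was narrower on cKO arrays (SD over probe sets 1.82 to 1.87 against 1.90 to 1.93), and the reason was not tested. After quantile normalization Plod3 had a difference of 0.26 (limma adjusted p = 0.00432). The decile of Plod1 probe set 1 and Plod2 probe set 2 had a median of -0.12. Their differences after quantile normalization were 0.99 (limma adjusted p = 0.000237) and 0.51 (0.18).

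**Figure D2:**
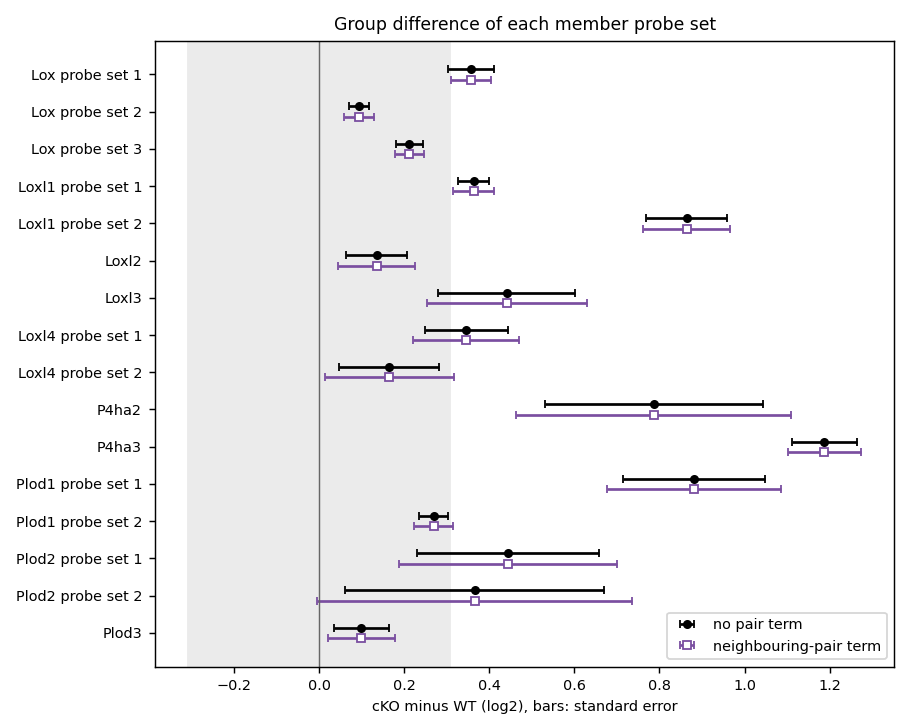
Difference cKO minus WT (x axis, log2) for each of the 16 probe sets, with standard errors from the fit without (black circles) and with (purple squares) the neighbouring-pair term; the grey band spans plus and minus 0.307, the size of the largest group difference of a nonspecific control, which was a decrease in cKO tumours. P4ha3 (1.19), Plod1 probe set 1 (0.88) and Loxl1 probe set 2 (0.86) lie farthest to the right among the probe sets that passed both fits, and no probe set lies left of 0.

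Of the lysyl oxidases, Loxl1, which is needed for elastic fibre assembly, rose most. Its brighter probe set (number 2) read 5.02 to 5.43 (median 5.24) in WT and 5.83 to 6.49 (median 6.09) in cKO tumours. The lowest cKO array (replicate 2) lay above the highest WT array (replicate 8). The means were 5.24 ± 0.15 (SD, n = 6) and 6.11 ± 0.20 (SD, n = 7), a difference of 0.86 ± 0.10 (SE) or 1.82-fold (limma adjusted p = 1.75e-05, and 0.00195 with the pair term). Loxl1 probe set 1 rose by 0.36, from 3.80 to 4.02 on WT arrays to 4.23 to 4.34 on cKO arrays (limma adjusted p = 8.43e-06, and 0.00288 with the pair term). All WT arrays and 4 of 7 cKO arrays were below 4.29 on that probe set, and the bound was at least 1.01-fold higher.

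Lox, the founding member of the family, was dim on its 3 probe sets. Lox probe set 1 read 4.05 to 4.14 (median 4.10) in WT and 4.34 to 4.71 (median 4.40) in cKO tumours, with a difference of 0.36 (limma adjusted p = 0.00016, and 0.00276 with the pair term) and a bound of at least 1.12-fold higher. Lox probe set 3 read 4.49 to 4.58 (median 4.54) and 4.70 to 4.84 (median 4.72), a difference of 0.21 or 1.16-fold (limma adjusted p = 0.000185, and 0.00527 with the pair term). The groups did not overlap on either. Lox probe set 2 read 3.39 to 3.47 in WT and 3.49 to 3.57 in cKO tumours, below 4.29 on every array, and passed without the pair term only (limma adjusted p = 0.0045, and 0.0885 with it). The differences of probe sets 2 (0.09) and 3 (0.21) did not exceed 0.307, but both were above the highest control increase of 0.08.

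The remaining oxidases passed in 1 fit or in none. Loxl3 read 4.62 to 4.78 (median 4.67) in WT and 4.76 to 6.03 (median 5.06) in cKO tumours. Its difference of 0.44 passed without the pair term (limma adjusted p = 0.0378) and not with it (0.118), and leaving out any of 9 of the 13 arrays (WT replicates 2, 4, 6, 7, 8 and 9, cKO replicates 1, 3 and 8) ended the call, with limma adjusted p of 0.05 to 0.0658. cKO replicate 6 (6.03) stood well above the other cKO arrays, and without it the difference was 0.29 with a limma adjusted p of 0.00254. Loxl2, an oxidase of basement membrane collagen among other targets, read 3.88 to 4.30 (median 4.07) in WT and 4.09 to 4.50 (median 4.18) in cKO tumours, below 4.29 on 5 of 6 and 6 of 7 arrays. It did not pass (difference 0.14, 95% interval -0.02 to 0.29; limma adjusted p = 0.141), except without WT replicate 8 (0.18, limma adjusted p = 0.0465).

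Loxl4 was spread more widely among WT than among cKO tumours. Probe set 1 read 5.63 to 6.22 (median 5.84) in WT and 6.13 to 6.27 (median 6.25) in cKO tumours. WT replicates 2, 6 and 8 read 5.63, 5.65 and 5.65 and replicates 4, 7 and 9 read 6.22, 6.12 and 6.03, the same split of low and high arrays as for Plod1. The SD was 0.27 in WT (n = 6) and 0.05 in cKO tumours (n = 7), and the pair means in WT were 5.84 to 5.93. The difference of 0.35 passed without the pair term (limma adjusted p = 0.0107) and not with it (0.0751). Probe set 2 showed the same split of the WT arrays (5.19 to 5.31 against 5.76 to 5.88), and its difference of 0.17 did not pass (95% interval -0.09 to 0.42; limma adjusted p = 0.264).

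Probe sets of the same gene did not always move together between tumours. Over the 13 arrays, deviations from the group means had a Pearson r of 0.864 for the Plod2 probe sets, 0.853 for those of Loxl4 and 0.755 for Lox probe sets 1 and 3. The r was 0.014 for the Plod1 pair, 0.009 for the Loxl1 pair and -0.02 to 0.08 for Lox probe set 2 with the others, in each case between a probe set below the control quartile in WT tumours and a brighter reading, or between 2 dim ones. These correlations describe arrays that mirror each other and carry no test.

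cKO replicate 6 was the array with the highest cKO value on 8 of 16 member probe sets, among them the readings of Lox (probe sets 1 and 3), Loxl1 (both), Loxl2 and Loxl3. The same array had the highest cKO mean of the substrate list (7.46, other cKO arrays 6.65 to 7.15), the fibroblast markers (6.31 against 5.81 to 6.17) and the macrophage and leukocyte markers (5.53 against 4.81 to 5.15). Without it 11 member probe sets passed as higher, the same count as with all arrays, and the share over all probe sets is not given here. The part of these cell markers in the enzyme differences was not tested.

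Some fibroblast, endothelial and leukocyte markers read higher in cKO tumours beside the enzymes. At the level of genes, each read by its brightest probe set, 5 of 12 fibroblast markers were called higher and 0 lower, 7 of 10 endothelial markers higher and 0 lower, and 4 of 10 macrophage and leukocyte markers higher and 0 lower, where limma over 17097 genes called 25.7% higher and 20.1% lower (14.4% and 10.3% with the pair term). With the pair term 5 fibroblast, 6 endothelial and 3 leukocyte markers were called higher. Summed as list means, the fibroblast markers spanned 5.48 to 5.69 in WT and 5.81 to 6.31 in cKO tumours, the endothelial markers 4.31 to 5.40 and 5.49 to 5.91, and the leukocyte markers 4.49 to 4.58 and 4.81 to 5.53. Dcn, which encodes the small proteoglycan decorin, rose by 1.10 (limma adjusted p = 5.42e-06), Thy1 by 1.42 and the endothelial adhesion gene Pecam1 by 1.76. Among the leukocyte markers Cd53 had by far the largest difference, from 4.44 ± 0.60 to 7.39 ± 0.58, and the others differed by -0.01 to 0.70. Adgre1 rose by 0.35 with both group means below the control quartile, and Csf1r rose by 0.26. Itgam (0.23) passed without the pair term only. Defining markers were not uniform: Pdgfra had means of 3.96 in both groups, Ptprc had 3.47 and 3.46, both below the control quartile, Fbln1 had 10.51 and 10.68, and the endothelial Kdr, Tek and Cldn5 had differences of 0.04, 0.03 and -0.04 and did not pass. Keratinocyte markers, which define the labelled tissue, were bright in both groups, with list means averaging 10.84 in WT (lowest 10.58) and 10.82 in cKO tumours (10.45 to 11.17).

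Loxl3 tracked the leukocyte markers from tumour to tumour. In cKO tumours the mean of the 10 markers was lowest in replicate 5 (4.81) and highest in replicates 3 (5.15) and 6 (5.53), and Loxl3 was lowest in replicate 5 (4.76) and highest in replicates 3 (5.15) and 6 (6.03). The Pearson r of deviations from the group means was 0.981 over 13 arrays and 0.948 without cKO replicate 6. Over 13 arrays, Loxl3 also had an r of 0.729 with the fibroblast markers. Its r was 0.68 with TGF-beta ligands, receptors and response genes, and 0.648 with procollagen processing and secretion genes. With the hypoxia response markers, the highest r over 13 arrays were 0.786 for P4ha3, 0.769 and 0.629 for Plod2 probe sets 2 and 1, and 0.672 for P4ha2. Lox, named above with Plod2 and P4ha2 as a known target, had r of 0.027, 0.417 and 0.081 on its probe sets 1, 2 and 3, and Loxl4 had -0.554 and -0.519. Values of similar size were found with other lists. P4ha2 had an r of 0.66 with the adipocyte markers, and P4ha3 had 0.667 with the smooth muscle and pericyte markers. Loxl2 had 0.781 with the smooth muscle and pericyte markers, and Plod1 probe set 2 had 0.772 with the skeletal muscle markers. The hypoxia list was lowest in WT replicate 4 (8.95), where Plod2 probe set 2 was also lowest (6.86), and highest in cKO replicate 2 (9.78), where it was highest (9.13). These pairings of member and list were picked from the correlations of all members with all lists, share array and normalization, and are descriptions.

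**Figure D3:**
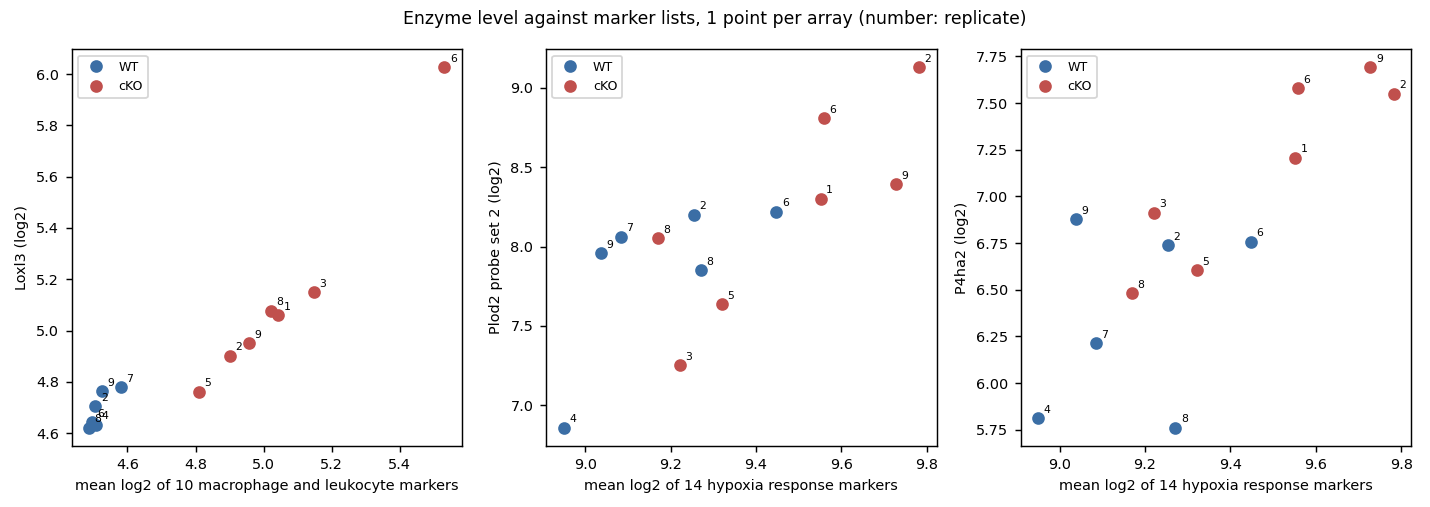
Log2 value of Loxl3, Plod2 probe set 2 and P4ha2 (y axes) against the mean log2 level of 10 macrophage and leukocyte markers or 14 hypoxia response markers (x axes), 1 point per array with its replicate number (WT blue, cKO red). Loxl3 lies close to a line with cKO replicate 6 at its top end (5.53, 6.03), and the hypoxia panels rise from WT replicate 4 to the cKO replicates 2 and 9 with more scatter.

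The genes most alike P4ha3, by Pearson r of deviations from the group means over the 13 arrays, were Sat1 (0.861), Sectm1a (0.848) and Psme2 (0.847). Their own group differences were 0.33, 0.57 and -0.23.

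Of the fibrillar collagen genes whose products these enzymes modify, Col1a1 and Col3a1, read by their brightest probe sets, had larger group differences than each of the 10 enzymes. Col1a1 and Col3a1 rose by 2.93 and 3.22 (limma adjusted p = 3.06e-05 and 8.1e-05). Col1a1 read 5.29 to 7.78 on WT and 8.62 to 10.03 on cKO arrays, and Col3a1 read 4.38 to 7.63 and 8.17 to 9.55. Col3a1 probe set 2, the dimmer one, had means of 3.41 and 3.69, both below the control quartile, with a difference of 0.28. Col1a2 was read at 3.68 to 3.94 on cKO arrays, below the control quartile, with a difference of 0.06. The mean of these 3 genes, which was higher by 2.07 in cKO tumours, was subtracted from each enzyme within each array, an index that is compared between groups only and not between enzymes. A gene with no difference of its own reads about -2.07 on it, and the median over all 17097 genes was -2.06. All 10 enzyme indices had lower means in cKO tumours, by 0.89 (P4ha3, -0.89) to 1.97 (Plod3, -1.97) log2 units, a direction that the collagens set. The groups did not overlap for Lox, Loxl2, Loxl3 and Plod3, 4 of 10 members, where this held for 86.7% of all genes. WT replicate 8 had the highest collagen mean of its group (6.38, other WT arrays 4.47 to 5.19), and without it 8 of 10 members did not overlap (98.5% of all genes). With Col1a1 and Col3a1 alone, a choice made after seeing the data as was leaving out arrays here, the differences were -1.89 to -2.98 (median over all genes -3.06), and 6 of 10 members did not overlap (94.1% of all genes), or 10 of 10 without WT replicate 8 (99.6%). No test of the members against other genes was run on this index.

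**Figure D4:**
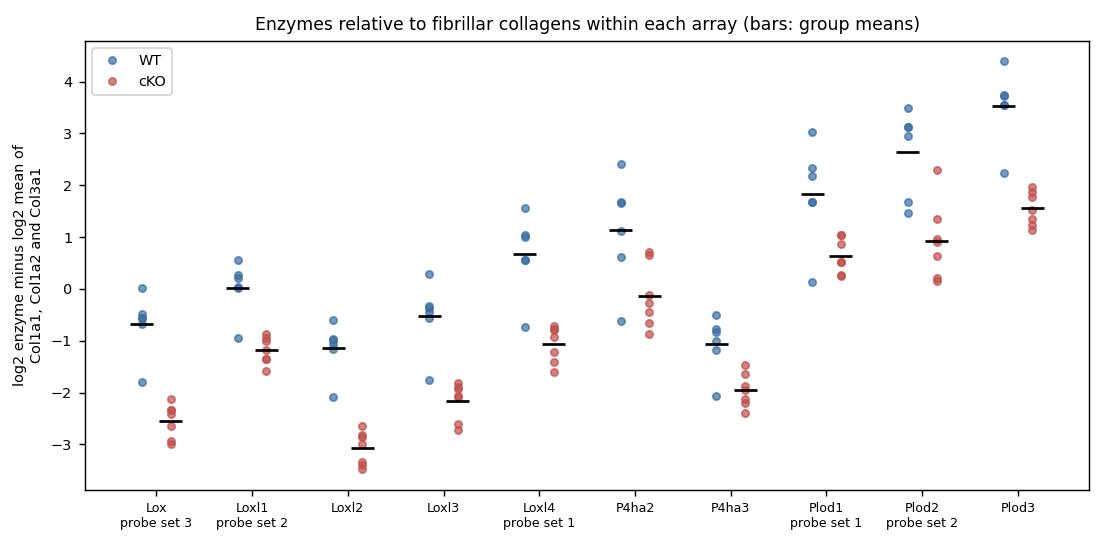
Log2 enzyme value minus the mean log2 value of Col1a1, Col1a2 and Col3a1 on the same array (y axis) for the brightest probe set of each of the 10 genes (x axis); points are arrays (WT blue, cKO red) and bars group means. Each cKO mean lies below its WT mean, by 0.89 for P4ha3 and 1.97 for Plod3, where the median over all genes was -2.06, and heights are not comparable between genes.

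Of 15 other collagen-modifying enzymes and chaperones measured, 4 were called higher and 4 lower (2 and 1 with the pair term), where 25.7% and 20.1% of all genes were (14.4% and 10.3%). Their median difference was -0.12, against 0.017 over all genes. After quantile normalization it was 0.03, against 0.037 over all genes. No test compared these enzymes and chaperones with the members. Crtap, which encodes a partner of prolyl 3-hydroxylase, fell from 8.43 ± 0.14 to 7.48 ± 0.20 (limma adjusted p = 5.85e-06). Fkbp7, a peptidyl-prolyl isomerase gene of the endoplasmic reticulum, rose by 0.70 and the transglutaminase gene Tgm2 by 0.52. P4hb, which encodes the disulphide isomerase that pairs with the P4ha subunits, differed by -0.27 and passed without the pair term only (limma adjusted p = 0.0047, and 0.051 with it), and after quantile normalization by -0.12 (limma adjusted p = 0.0978).

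Of 13 measured genes of procollagen processing and secretion, 1 was called higher and 5 lower (0 and 2 with the pair term). Their median was -0.06, and 0.01 after quantile normalization. The shares over all genes were 25.7% and 20.1% (14.4% and 10.3% with the pair term). Tll1 and Tll2 encode tolloid-like proteases, relatives of the enzyme Bmp1 that trims procollagen and activates pro-Lox. Tll1 fell from 6.52 ± 0.87 to 3.84 ± 0.40 (limma adjusted p = 5.36e-05), with a cKO mean below the control quartile, and Tll2 fell by 0.21, within the range of the controls. Sec23a (-0.26) and Ctsk, the collagen-degrading cathepsin K gene (0.66), passed without the pair term only.

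Among 20 measured substrates and matrix partners, 9 were called higher and 1 lower (7 and 0 with the pair term). Their median was 0.69, and 0.79 after quantile normalization. For all genes the shares were 25.7% and 20.1% (14.4% and 10.3% with the pair term). Besides Col1a1 and Col3a1, Lum, which encodes the proteoglycan lumican, rose by 0.83 from a mean below the control quartile, and Col5a3 rose by 0.89 from 4.67 ± 0.20 to 5.56 ± 0.23 (limma adjusted p = 5.26e-05).

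Hypoxia response markers were called higher in 5 of 14 and lower in 0 (3 and 0 with the pair term), with a median of 0.18 (0.29 after quantile normalization). Over all genes, 25.7% were called higher and 20.1% lower (14.4% and 10.3% with the pair term). Bnip3, a mitophagy gene, rose from 9.01 ± 0.23 to 9.80 ± 0.38 (limma adjusted p = 0.00222), and Egln3, an oxygen-sensing prolyl hydroxylase of hypoxia-inducible factors, rose by 0.93, and Ankrd37 by 0.32. Aldoa (0.22) passed without the pair term only. TGF-beta ligands, receptors and response genes had 0 of 10 called higher and 4 lower (0 and 2 with the pair term), with a median of -0.36. After quantile normalization the median was -0.28, against 0.037 over all genes. Tgfbr1, a receptor gene, fell from 8.58 ± 0.19 to 7.73 ± 0.12 (limma adjusted p = 6.05e-06) and Skil by 0.45. Tgfbr2 (-0.53) and Ccn1 (-0.48) passed without the pair term only. After quantile normalization, without the pair term, Ccn1 did not pass (-0.36, limma adjusted p = 0.059), and Tgfbr1, Skil and Tgfbr2 did.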

How the data were processed

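The deposited table holds log2 expression per probe set after RMA by the authors, per the submitters' processing notes; its version and any further adjustment are not given here by any label or header. Per the labels' protocols, 25 ng of RNA was amplified in 17 cycles and 8 µg of cDNA labelled. Groups and replicate numbers came from the sample titles. The 104 array controls were set aside, and 45037 probe sets entered limma (version 3.58.1, R version 4.3.3; no covariate, no filter, two-sided, Benjamini-Hochberg, threshold 0.05), again with a term for each mirrored pair of neighbours (r below -0.8 over all probe sets). Genes of the lists were read by the probe set of highest mean and adjusted over 17097 genes. Bounds set each array at 4.29 or its own value, whichever was higher. Intervals are 95%. The fits were tested on simulated data. No array pair held identical values (r 0.968 to 0.996). The number of arrays, their mirrored pairs and signal near background limit precision. Named genes are all members, up to 4 per list by smallest p, Ehmt2, 3 collagens and the 3 genes most alike the member of largest increase. Further list genes (Pdgfra, Ptprc, Fbln1, Kdr, Tek, Cldn5, Atp7a, Slc31a1 and Atox1) were chosen after their values were seen. Members and lists were chosen with earlier results of these data known. Alternatives were other normalizations, filters, probe-set summaries, priors, weights, blocks, thresholds and each array left out. Protein sequences and scanner files were not used here. Figures were drawn with matplotlib 3.10.9.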

Additional observations from a re-analysis of the deposited data

Results flagged for a closer look

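Of 32 readings (16 probe sets in each of the 2 groups), 4 had an array far from the rest of its group by Dixon's criterion. Chance meets it in about 1 in 20 groups of independent values. Neighbouring arrays mirror each other and the readings share arrays, so the 4 cannot be set against that rate. cKO replicate 6 stood above its group for Loxl3 (6.03, other cKO arrays 4.76 to 5.15) and for Loxl2 (4.50, others 4.09 to 4.22). cKO replicate 2 stood below its group for Loxl4 probe set 1 (6.13, others 6.21 to 6.27). WT replicate 4 stood below its group for Plod2 probe set 2 (6.86, others 7.85 to 8.22), while Plod2 probe set 1 read 6.20 there, within its group's range.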

How the results depend on the processing

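The difference of each member probe set kept its direction under every alternative run, and 0 member probe sets were called lower under any of them. Against 11 called higher (24.4% of all probe sets), the count was 7 with the neighbouring-pair term (13.9%). It was 4 of the 8 left by a filter at the 50th percentile of level, and 7 of 10 with 1 probe set a gene (25.7% of all genes). With the mean over probe sets of a gene it was 6 of 10. The filter and the gene-level readings test fewer features. For the filter, the probe-set means, the arrays left out and the block, the share over all features is not given here. Leaving out each array gave 9 to 11. The replicate number as a block gave 10. Numbers 2, 6, 8 and 9 occur in both groups, with correlations of deviations between -0.283 and 0.054. Since neighbouring arrays mirror each other, these correlations cannot tell whether arrays with the same number share more than it. Plod3 passed after quantile normalization (0.26, adjusted p = 0.00432 by limma) and with array weights (0.14, 0.0339), whose fit stopped before full convergence, and after quantile normalization with the pair term (0.0435). Plod2 passed on both probe sets under the block (0.71 and 0.54) and on probe set 1 with array weights (0.54). P4ha2 missed the threshold without WT replicate 4 or 8, Loxl3 after quantile normalization (0.0504) and under the block (0.149), Lox probe set 2 likewise (0.0599 and 0.23), Lox probe set 3 under the block (0.0513), and Loxl4 with the mean over probe sets (0.26, 0.0591). At a threshold of 0.01, Loxl3, Loxl4 probe set 1 and P4ha2 were not called. Depth has no counterpart here, and 6 of 16 member probe sets had a WT mean below the upper quartile of nonspecific controls, where differences are bounds.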

Other observations

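Genes of copper, iron, ascorbate and oxoglutarate supply went both ways, and their part in supplying the member enzymes was not tested. Of 10 measured copper, iron, ascorbate and oxoglutarate genes, 2 were called higher and 2 lower, where 25.7% and 20.1% of all genes were. Their median difference was -0.09, and -0.02 after quantile normalization. Ccs, the copper chaperone of superoxide dismutase, fell from 6.73 ± 0.22 to 6.13 ± 0.06 (limma adjusted p = 7.85e-05), the transferrin receptor gene Tfrc fell by 0.58, and the copper transporter gene Atp7b rose by 0.18. Idh2, which encodes a mitochondrial enzyme that makes oxoglutarate, had a difference of 0.26 and passed without the pair term only (limma adjusted p = 0.00442, and 0.051 with it). The other copper genes of the list, Atp7a (-0.11), Slc31a1 (-0.003) and Atox1 (0.10), did not pass in either fit. After quantile normalization Atox1 passed without the pair term (0.25, limma adjusted p = 0.00226).

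Contractile and other cell markers were mixed, and their counts stand beside 25.7% of all genes called higher and 20.1% called lower. Of 5 smooth muscle and pericyte markers, 2 were called higher and 1 lower: Acta2, the smooth muscle actin gene, rose from 7.75 ± 0.56 to 9.19 ± 0.39 (limma adjusted p = 0.00047), Myh11 rose by 0.55, and the pericyte gene Rgs5 fell from 6.15 ± 0.51 to 4.72 ± 0.05 (limma adjusted p = 5.09e-05). Of 6 skeletal muscle markers, 2 were called higher (Myh1 by 0.58 and Acta1 by 0.22), with list means of 4.63 to 4.73 in WT and 4.80 to 4.85 in cKO tumours. Of 3 measured adipocyte markers, Adipoq (0.19) was called higher and Lep (-0.16) lower, all 4 group means of this pair being below the control quartile, and Fabp4 had means of 9.04 ± 1.70 and 8.48 ± 1.01 and did not pass. Of 10 keratinocyte markers, 1 was called higher (Krt5, 0.14) and 2 lower (Krt6a by 0.37, and Krt14 without the pair term only).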
